A study of Mus musculus with 2 samples.

Results

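A set of 40 genes grouped as activity-regulated early and late response genes was described in mouse hippocampus. They were listed by gene name with no cut on a measured value, although earlier results of these data were known when they were chosen. All 40 were found among the 55536 annotated genes of the deposited tables. They comprise 7 AP-1 factors, 4 EGR zinc-finger factors, 3 NR4A nuclear receptors, 7 other transcriptional regulators, 11 regulators of signalling and stress and 8 effectors that act at synapses, outside the cell or in Ras-family signalling. The tissue came from female mice of the B6CASTF1/J strain, first-generation hybrids of C57BL/6J and CAST/EiJ, at 36 days of age. Its type is labelled layer of hippocampus for both libraries, so it may be a part of the hippocampus rather than the whole. Total RNA was sequenced after ribosomal RNA reduction from 300 ng of RNA per library, with synthetic ERCC RNAs added. The 2 libraries form a single group, biological replicates 1 and 2, with no treatment and no second condition. The labels give both libraries the same donor record and separate tissue samples, so the spread between them is that of 2 samples, and whether they came from separate mice is not stated. How the animals were handled before dissection is not stated in the labels.

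Neuronal activity opens calcium channels and NMDA receptors, and calcium and kinase signalling then act on factors already bound to DNA, chiefly CREB at cyclic AMP response elements and SRF with its partners at CArG boxes. Immediate early genes such as Fos, Egr1 and Arc are transcribed within minutes without new protein synthesis, and their protein products help to switch on later genes that alter synapses and secretion. In the hippocampus these RNAs are widely used as markers of recently active neurons.

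The regions just before the start sites were searched for the elements through which CREB and SRF are known to act, and those with a match that are described here are shown first. The reference table of RefSeq promoters on GRCm38.p6 gave 34 windows of 300 bases, from 250 before to 50 after a start, for 30 of the genes. The cyclic AMP response element TGACGTCA was found in 4 of these 30 genes, Btg2, Dusp1, Pcsk1 and Plk2, which is 13.3% against 2.03% of the 26994 genes with a window. Its shorter form TGACG, searched on both strands and also contained in the full element, was found in 19 of 30 genes, which is 63.3% against 23.0%. The CArG box, the SRF element, was found in Dusp5 and Egr2, which is 6.67% against 1.81%. TATAAA, the core of the TATA box, was found in 6 of 30 genes, which is 20% against 15.7%. The AP-1 element TGANTCA and the EGR element GCGTGGGCG were found in none of the 30, against 8.98% and 0.708% of all genes with a window. The windows of these genes were richer in G and C than all windows, with a median of 64.2% against 52.7%, and the motif shares were not adjusted for this. A match is a description of letters and not a measured binding site.

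The upstream part of 7 windows is printed. They hold the full cyclic AMP element or the CArG box, or, for Fos, the short form beside a TATA sequence. The windows of Junb and Nr4a2 also held the short form and TATAAA, and further windows of Egr2 held a CArG box. Those are not printed. Each runs 5′ to 3′ on the strand of the gene and stops before any annotated exon. Capitals mark every match of a searched motif on either strand, so that CGTCA is TGACG read on the other strand. The sequences are those of the reference genome, whereas these mice also carry CAST/EiJ alleles. Btg2 is chr1:134079156-134079405 on the minus strand, Dusp1 is chr17:26508520-26508722 on the minus strand, Pcsk1 is chr13:75089607-75089825 on the plus strand, and Plk2 is chr13:110394794-110395043 on the plus strand. Egr2 is chr10:67537619-67537868, Dusp5 is chr19:53528895-53529108 and Fos is chr12:85473640-85473889, all on the plus strand.
Btg2: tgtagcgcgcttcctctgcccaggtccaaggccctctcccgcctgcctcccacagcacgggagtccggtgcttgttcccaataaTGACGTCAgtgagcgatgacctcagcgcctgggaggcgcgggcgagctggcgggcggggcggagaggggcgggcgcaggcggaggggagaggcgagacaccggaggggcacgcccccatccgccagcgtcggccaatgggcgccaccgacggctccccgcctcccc
Dusp1: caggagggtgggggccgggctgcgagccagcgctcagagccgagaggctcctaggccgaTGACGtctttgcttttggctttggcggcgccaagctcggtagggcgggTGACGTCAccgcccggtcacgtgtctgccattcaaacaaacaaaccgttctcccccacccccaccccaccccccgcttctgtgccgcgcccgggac
Pcsk1: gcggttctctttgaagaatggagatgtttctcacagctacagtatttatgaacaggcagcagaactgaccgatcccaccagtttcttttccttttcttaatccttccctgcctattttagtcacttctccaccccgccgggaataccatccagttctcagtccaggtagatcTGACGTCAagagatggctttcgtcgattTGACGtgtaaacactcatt
Plk2: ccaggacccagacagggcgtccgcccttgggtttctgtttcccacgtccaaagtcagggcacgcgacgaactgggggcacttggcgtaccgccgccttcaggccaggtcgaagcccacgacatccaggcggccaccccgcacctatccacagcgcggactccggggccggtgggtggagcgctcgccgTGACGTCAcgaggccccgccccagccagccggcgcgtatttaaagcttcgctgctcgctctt
Egr2: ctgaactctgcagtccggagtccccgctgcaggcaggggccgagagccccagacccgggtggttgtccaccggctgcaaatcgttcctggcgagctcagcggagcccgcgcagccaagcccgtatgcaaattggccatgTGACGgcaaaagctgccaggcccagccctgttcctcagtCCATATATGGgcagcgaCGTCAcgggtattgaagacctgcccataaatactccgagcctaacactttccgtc
Dusp5: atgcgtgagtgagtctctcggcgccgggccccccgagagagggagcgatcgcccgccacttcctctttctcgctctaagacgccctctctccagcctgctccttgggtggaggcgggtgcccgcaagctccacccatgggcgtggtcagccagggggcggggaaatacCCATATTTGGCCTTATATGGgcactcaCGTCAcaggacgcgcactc
Fos: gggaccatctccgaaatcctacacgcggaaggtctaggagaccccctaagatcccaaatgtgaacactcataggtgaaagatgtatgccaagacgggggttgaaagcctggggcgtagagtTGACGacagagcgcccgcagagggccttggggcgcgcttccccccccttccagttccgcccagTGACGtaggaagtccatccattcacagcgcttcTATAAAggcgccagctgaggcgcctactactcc
In the printed window of Egr2 the CArG box began 72 bases before the start, with a TGACG match on the other strand at 55 bases. In Dusp5, 2 CArG boxes lay end to end, beginning at 82 and 72 bases before the start, and a TGACG match on the other strand began at 55 bases. In Fos the TATA sequence began 33 bases before the start and the nearer TGACG match at 66 bases.

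The libraries held 32299053 and 30010758 estimated read counts on annotated genes in replicates 1 and 2. The 40 genes took 70707 and 63310 of these, or 0.219% and 0.211%. TPM, the deposited level that divides a count by RNA length and by the sum over all transcripts, was used to compare levels between genes, and 1 TPM in both libraries was taken as detection. All 10 pan-neuronal and all 6 excitatory neuron markers were detected, with Camk2a at 1303 and 1180 TPM and Nrgn at 652 and 602 TPM. The same held for all 10 astrocyte, 10 oligodendrocyte and 8 microglia markers. Markers of tissue next to the hippocampus differed between the libraries. The 11 choroid plexus markers summed to 27.2 and 1307 TPM, led by Ttr at 20.8 and 1237 TPM and Sostdc1 at 1.04 and 13.5 TPM, and none was at 0 in either library. The 7 meningeal fibroblast markers summed to 53.8 and 109 TPM, led by Igf2 and Dcn. The 10 oligodendrocyte markers, Mbp among them, summed to 1669 and 1274 TPM, and the 5 CA3 markers to 152 and 122 TPM. The 7 dentate granule neuron markers went the other way, from 137 to 152 TPM in sum with 6 of 7 higher in replicate 2, and the 8 mural markers summed to 60.01 and 66.6 TPM, with 2 of the 6 that had enough counts past 1.3-fold higher. The part of these tissue differences in the ratios given below was not tested. In bulk tissue, fewer cells of a type and less RNA per cell cannot be told apart.

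Nearly all of the genes were measurable in this tissue, since 39 of 40 reached 1 TPM in both libraries, against 26.3% of all 55536 genes and 57.6% of the 22028 protein-coding genes. Their median level was 11.7 ± 0.230 TPM (mean ± SD, n = 2), and 18 of the 40 lay above 14.7 TPM, the median of all detected protein-coding genes. Mean levels spanned 310-fold from Rasgrp1 to Atf3. In the order of mean levels, the ranges of the 2 libraries did not overlap for 12 of the 39 pairs of neighbours, so for the other pairs the order is not separated by the spread.

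**Figure D1:**
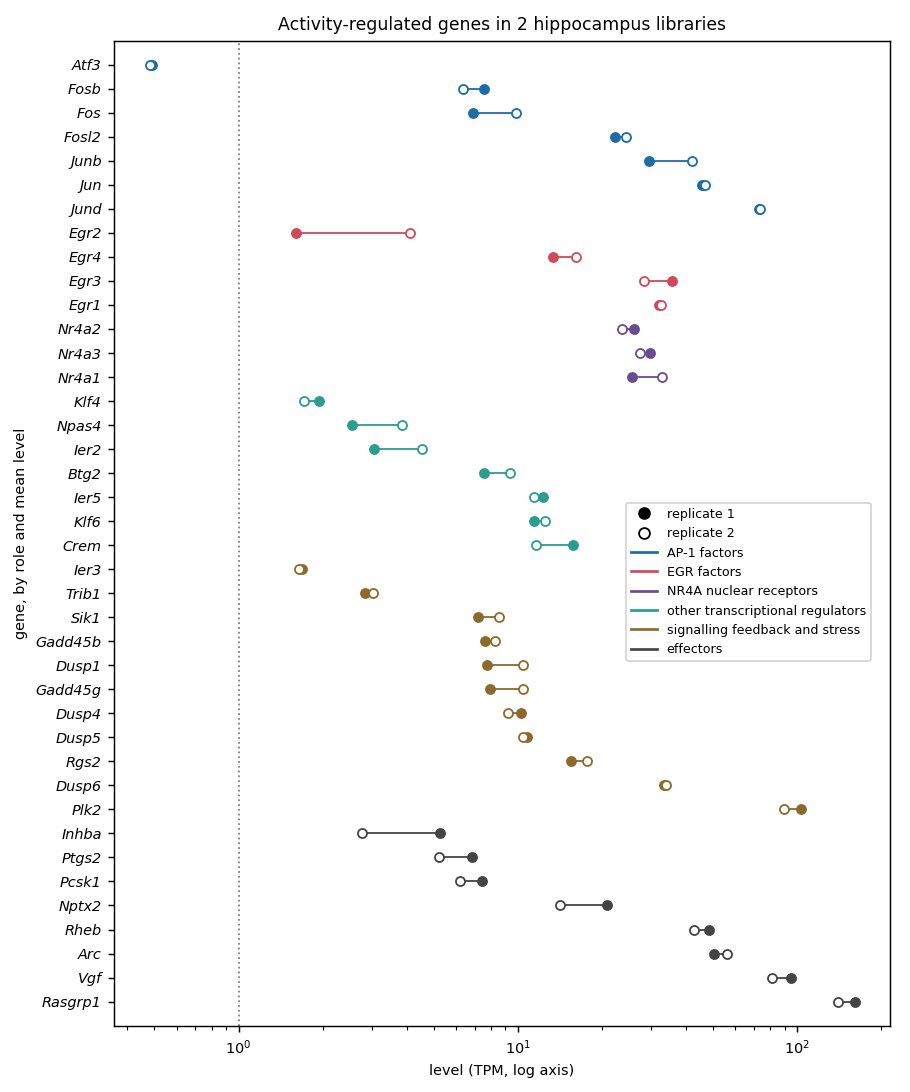
Level of each of the 40 genes in TPM on a log axis, grouped by role and ordered by mean level within a role; filled points are replicate 1, open points replicate 2, and the dotted line is 1 TPM. Atf3 alone lies below 1 TPM in both libraries, and the widest gaps between the points of a gene are those of Egr2 and Inhba.

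For each gene the ratio of replicate 2 over replicate 1 was computed on the log2 scale from counts scaled by TMM over all genes, with an exact binomial 95% interval that covers counting error only. With 1 library on each side there is no test and no p-value, and the ratios describe these 2 libraries. A mean of at least 100 counts was reached by 38 of the 40 genes. Of these, 21 were higher in replicate 2, against a background of 45.7% of all 12651 genes at that depth, and 17 were lower, against 54.3%. Their median was 0.04 on the log2 scale, against -0.01 over all of these genes. More than 1.3-fold higher in replicate 2 were 6 genes, or 15.8%, against 3.26% of all genes. They were Egr2, Fos, Npas4, Ier2, Junb and Dusp1. All but Junb had low mean counts, from 123 for Ier2 to 368.5 for Dusp1, and the background was not matched for depth. At a mean count of 500 or more, 1 gene was past 1.3-fold higher. The counting intervals of Dusp1, Npas4 and Ier2 began below 1.3-fold, at 1.19, 1.25 and 1.15-fold. Other early transcription factors among the 40 were within 1.3-fold, among them Nr4a1 at 0.35, Egr1 and Jun at 0.04 and Fosb at -0.25. More than 1.3-fold lower were 3 genes, or 7.89%, against 0.956% of all genes, namely Inhba, Nptx2 and Ptgs2, all effectors. More than 1.5-fold, 2 genes were higher (Egr2 and Fos) and 1 lower (Inhba), against 1.10% and 0.245% of all genes. More than 2-fold, 1 gene was higher (Egr2), against 0.372% of all genes, and 1 lower (Inhba), against 0.0949%. The counting interval lay wholly above equality for 13 genes, wholly below for 13 and included it for 12. This count was not made over all genes, so it is not a trait of the set. It depends on depth, since at high counts the interval excludes equality even for a small ratio, as for Rasgrp1 at -0.22. Under spike-in scaling the ratios of all genes move up by 0.26, and 13 of the 40 genes then change sign. They are Egr3, Fosb, Nr4a2, Nr4a3, Ier3, Ier5, Klf4, Dusp4, Dusp5, Plk2, Rasgrp1, Rheb and Vgf, each lower by less than 1.3-fold under TMM. None of the 9 genes past 1.3-fold changes sign under spike-in, total count or DESeq2 scaling. Under spike-in scaling 13 genes were past 1.3-fold higher, against 17.8% of all genes, and Inhba alone past 1.3-fold lower, against 0.213%, so that Nptx2 (-0.30) and Ptgs2 (-0.13) were no longer called. Ptgs2 also fell short of 1.3-fold under total counts and in the second quantification, both at -0.36.

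**Figure D2:**
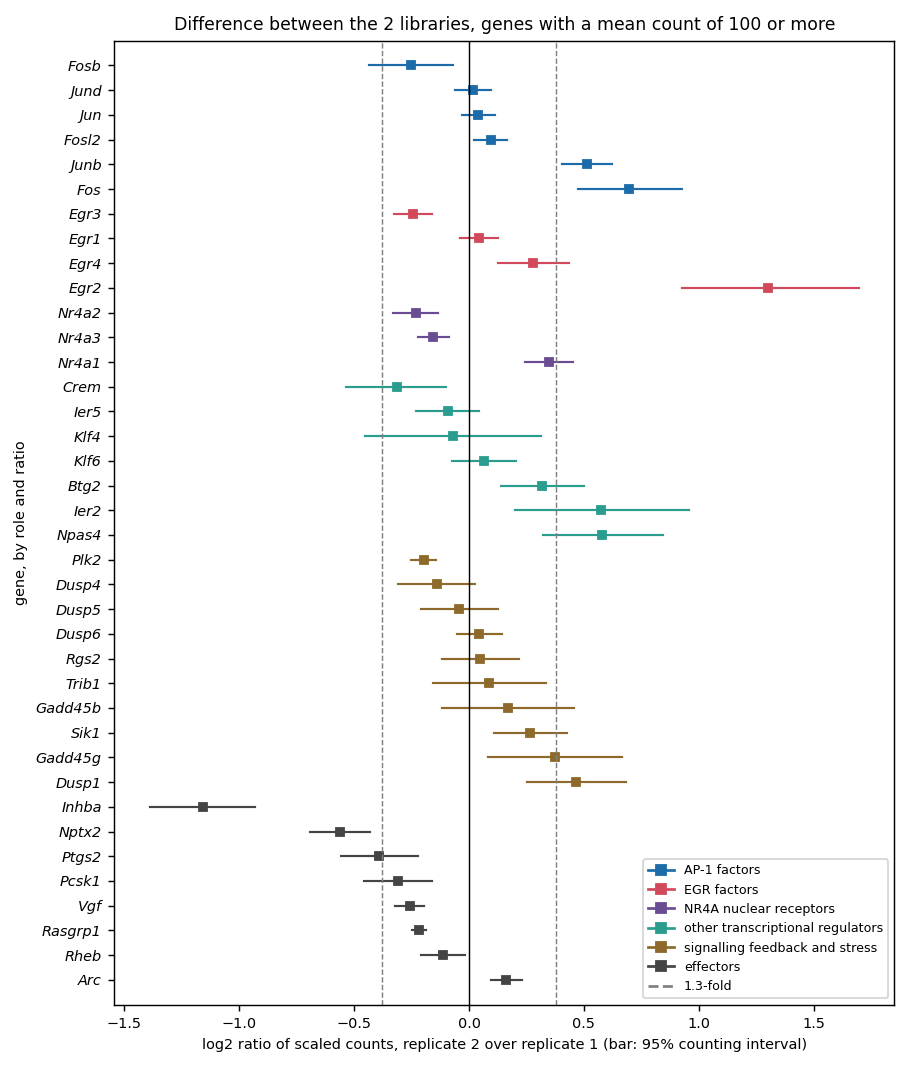
Log2 ratio of TMM-scaled counts, replicate 2 over replicate 1, for the 38 genes that averaged at least 100 counts, with the exact binomial 95% interval of counting error as bars; dashed lines mark 1.3-fold. Egr2 lies farthest to the right, 2.46-fold higher, and Inhba farthest to the left at -1.16, and 7 of the 8 effectors lie below 0.

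The AP-1 factors are basic leucine zipper proteins that bind DNA as dimers, often of a Fos and a Jun member. Jund, the member known for steady expression, was the most abundant at 73.1 TPM in replicate 1 and 73.5 in replicate 2 (2699 and 2586 counts). Jun followed at 45.7 and 46.8 TPM, and Fosl2 at 22.2 and 24.3 TPM. These 3 genes were nearly level between the libraries, with log2 ratios of 0.02, 0.04 and 0.09. Fos had 268 and 412 counts, or 6.90 and 9.85 TPM, a log2 ratio of 0.70 with an interval from 0.47 to 0.93. Junb had 1182 and 1599 counts, or 29.5 and 41.8 TPM, a log2 ratio of 0.51 from 0.40 to 0.62. Both were thus higher in replicate 2 by more than counting error. Fosb went the other way with 567 and 451 counts, 7.53 and 6.36 TPM, and a log2 ratio of -0.25 from -0.43 to -0.07, which is 0.01 under spike-in scaling. Atf3, a stress-induced member of the wider family, had only 17 and 20 counts, or 0.49 and 0.48 TPM, and its ratio cannot be read at this depth. The 6 members with enough counts had a median log2 ratio of 0.07, with 2 past 1.3-fold. Junb shares 173 exonic bases with Prdx2 on the opposite strand, and Jund and Jun overlap the antisense genes Gm11175 and Junos. Dusp1, Crem and Dusp5 also share exonic bases with a gene on the opposite strand. Whether the counting used strand is not stated, so reads of such pairs may not be fully separated.

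Fosb also carries the best known alternative splice of the set. Removal of a 140-base stretch inside the last coding exon shifts the reading frame and gives the truncated protein ΔFosB, which lacks the C-terminal part and is known to accumulate with repeated activity. The stretch is chr7:19305007-19305146 (mm10) on the minus strand and is printed as the reference has it, with the GT and AG that bound the spliced intron in capitals.
Fosb 140-base stretch: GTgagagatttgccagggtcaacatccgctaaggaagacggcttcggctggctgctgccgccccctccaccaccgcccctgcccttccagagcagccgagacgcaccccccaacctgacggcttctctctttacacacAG
Transcripts with this stretch spliced out, Fosb-206 and Fosb-207, took 28.0% and 28.5% of Fosb TPM in replicates 1 and 2. The second deposited quantification gave 29.4% and 30.9%. The TPM share was therefore close in both libraries and both quantifications, although the counts behind it differed between quantifications. They were 97.7 and 76.7 estimated counts in the first and 49.6 and 43.3 in the second. The share is an estimate by assignment of reads among overlapping transcripts. How it was divided differed, because the second quantification gave all of it to Fosb-206, which is 1090 bases long against 3523 for Fosb-207.

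The EGR factors are zinc-finger proteins that bind GC-rich sites, and Egr1 is among the most used activity markers in the brain. Egr1 had 2374 and 2317 counts, or 32.0 and 32.6 TPM, and a log2 ratio of 0.04 from -0.04 to 0.13. Egr3 was at a like level with 2718 and 2175 counts, or 35.5 and 28.3 TPM, and a log2 ratio of -0.24 from -0.33 to -0.16, which is 0.01 under spike-in scaling. Egr4 had 644 and 741 counts, or 13.4 and 16.1 TPM, with a log2 ratio of 0.28. These 3 genes lay within 1.3-fold, in both directions. Egr2 (chr10:67535475-67542188), which outside this setting is known for its part in myelination by Schwann cells, was the lowest of the family and the most different between libraries. It had 82 and 192 counts, or 1.61 and 4.11 TPM, and was 2.46-fold higher in replicate 2, with a log2 interval from 0.92 to 1.70. The second quantification gave 2.14 and 5.31 TPM and a log2 ratio of 1.22. The family median was 0.16.

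The NR4A receptors are orphan nuclear receptors that need no known ligand and are induced with the AP-1 and EGR genes. Their mean levels lay close together, from 24.8 to 29.2 TPM. Nr4a1 had 25.6 and 32.8 TPM with a log2 ratio of 0.35 from 0.24 to 0.45. Nr4a3 had 29.6 and 27.4 TPM with a log2 ratio of -0.16, and Nr4a2 had 26.1 and 23.6 TPM with a log2 ratio of -0.23. Nr4a1 was thus higher in replicate 2 while the other two were lower under TMM scaling, none past 1.3-fold. The family median was -0.16, and 0.10 under spike-in scaling.

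The 7 other regulators of transcription were lower in level. Crem, whose short form ICER is a repressor at cyclic AMP elements, had the highest mean TPM, with a log2 ratio of -0.32 from -0.53 to -0.10. It had 15.8 and 11.6 TPM from 410 and 312 counts. Klf6 had more counts, 861 and 853, and was higher than Crem in TPM in replicate 2. The zinc-finger factor Klf6 had 11.4 and 12.5 TPM and the related Klf4 1.94 and 1.71 TPM, with ratios of 0.06 and -0.07. Ier5, an early gene that acts on heat shock factor, had 12.3 and 11.4 TPM with a ratio of -0.09, and the antiproliferative coregulator Btg2 had 7.57 and 9.40 TPM with a ratio of 0.32. All 5 were within 1.3-fold by TMM-scaled counts, whereas from deposited TPM the log2 ratio of Crem was -0.44, past 1.3-fold lower. Npas4, a factor induced by calcium entry and largely restricted to neurons, had 211 and 299 counts, or 2.55 and 3.83 TPM, and a log2 ratio of 0.58 from 0.32 to 0.84. Ier2, a small early response gene of a single exon, had 102 and 144 counts, or 3.05 and 4.52 TPM, and a log2 ratio of 0.57 from 0.20 to 0.96. Both were past 1.3-fold, but their intervals are wide because of the low counts.

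The regulators of signalling and stress are a mixed group, of which 4 are phosphatases that act as brakes on MAP kinases. Plk2, a kinase that weakens synapses after strong activity, was the most abundant at 103 and 89.7 TPM, with a log2 ratio of -0.20 that is 0.06 under spike-in scaling. Among the phosphatases that switch off MAP kinases, Dusp6 had 33.3 and 33.9 TPM, Dusp5 10.8 and 10.4 TPM and Dusp4 10.2 and 9.23 TPM, with ratios of 0.05, -0.04 and -0.14. Dusp1, the broader nuclear phosphatase, had 319 and 418 counts, or 7.73 and 10.4 TPM, and a log2 ratio of 0.47 from 0.25 to 0.68. It alone of the 4 phosphatases was past 1.3-fold. Rgs2, which limits Gq signalling, had 15.5 and 17.7 TPM with a ratio of 0.05. The kinase Sik1, which restrains CREB coactivators, had 7.19 and 8.52 TPM with a ratio of 0.27. The pseudokinase Trib1 had 2.83 and 3.02 TPM with a ratio of 0.09. Of the growth arrest and DNA damage genes, Gadd45g had 7.97 and 10.4 TPM with a ratio of 0.37 from 0.08 to 0.67, just inside 1.3-fold and past it under total counts, deposited TPM and the second quantification. Gadd45b had 7.64 and 8.28 TPM with a ratio of 0.17 from -0.12 to 0.46. Ier3, an early gene linked to cell survival, had 41 and 38 counts, or 1.69 and 1.64 TPM, too few to read a ratio. The 10 genes with enough counts had a median log2 ratio of 0.07, with 7 higher and 3 lower.

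The effectors were the role group with the highest median level and the lowest median ratio, -0.28, with 7 of 8 lower in replicate 2, of which Rasgrp1, Rheb and Vgf no longer were under spike-in scaling. Marker lists differed under TMM. The 10 pan-neuronal markers were all lower, with a median of -0.15 that the spike-in shift of 0.26 exceeds, and the 4 CA3 markers with enough counts had a median of -0.31. The median was -0.11 for excitatory neuron, -0.10 for GABAergic interneuron, 0.01 for CA1 and 0.14 for dentate granule neuron markers. Oligodendrocyte markers had a median of -0.35. The part of cell content in the effector ratios was not tested. Rasgrp1, which activates Ras in response to calcium and diacylglycerol, led the whole set with 18804 and 15317 counts, or 160 and 140 TPM, and a ratio of -0.22 from -0.25 to -0.19. Vgf, a secreted neuropeptide precursor, had 94.96 and 81.26 TPM with a ratio of -0.26, and the mTOR activator Rheb 48.2 and 42.6 TPM with a ratio of -0.11. Arc, which drives uptake of AMPA receptors from synapses, was the single effector higher in replicate 2, at 50.3 and 56.0 TPM with a ratio of 0.16 from 0.10 to 0.23. Under spike-in scaling the ratio of Rasgrp1 is 0.04 and that of Rheb 0.15. Pcsk1, a protease that processes prohormones, had 7.41 and 6.22 TPM with a ratio of -0.31.

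Of the 8 effectors, 3 were past 1.3-fold lower under TMM scaling, against 0.956% of all genes. Inhba (chr13:16011851-16031621), the subunit of activin A, had 535 and 227 counts, or 5.25 and 2.76 TPM, and a log2 ratio of -1.16 from -1.39 to -0.93. From deposited TPM its ratio was -0.93, just under 2-fold, and from the second quantification -1.12. Nptx2, a secreted pentraxin that clusters AMPA receptors, had 1198 and 769 counts, or 20.9 and 14.1 TPM, and a ratio of -0.56 from -0.69 to -0.43, which is -0.30 and under 1.3-fold by spike-in scaling. Ptgs2, the inducible cyclooxygenase, had 703 and 508 counts, or 6.86 and 5.21 TPM, and a ratio of -0.39 from -0.56 to -0.22, close to 1.3-fold and short of it under spike-in scaling, total counts and the second quantification. These 3 genes were lower in the library in which Egr2, Fos and Npas4 were higher. In that library Nr4a1 was also higher, Egr1 and Jun were nearly level, and Egr3 and Fosb were lower under TMM scaling.

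Of the 4 genes printed with the full cyclic AMP element, Btg2 and Dusp1 were higher in replicate 2, with log2 ratios of 0.32 and 0.47, and Pcsk1 and Plk2 lower, with -0.31 and -0.20 under TMM scaling. Under spike-in scaling Btg2 was at 0.58, Dusp1 at 0.73, Pcsk1 at -0.05 and Plk2 at 0.06. Of the pair with a CArG box, Egr2 was 2.46-fold higher and Dusp5 had a log2 ratio of -0.04, within counting error of equality, under TMM scaling. Under spike-in scaling Egr2 was at 1.56 and Dusp5 at 0.22.

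Genes of the same pathway outside the 40 were read from lists by their known function. All 25 constitutive upstream regulators, the kinases, SRF, CREB and MEF2 factors and coactivators that receive the signal, were detected, among them Map2k1 at 134 and 129 TPM and Mef2d at 76.6 and 75.7 TPM. Of these, 13 were higher and 12 lower in replicate 2, their median was 0.01 (log2), and 0 were past 1.3-fold in either direction, against 3.26% and 0.956% of all genes. Under spike-in scaling 4 of the 25, or 16.0%, were past 1.3-fold higher, against 17.8% of all genes. The ratios farthest from 0 were those of Crtc2 at 0.25 and Rps6ka2 at 0.23. Of 30 further activity-regulated genes, 27 were detected and 22 had enough counts. Of the 22, 12 were higher and 10 lower with a median of 0.01. Past 1.3-fold were 0 higher, against 3.26% of all genes, and 1 lower, or 4.55% against 0.956%. Under spike-in scaling 9 were past 1.3-fold higher, or 40.9% against 17.8% of all genes, and 0 lower, against 0.213%. The most abundant were Nptx1 at 188 and 168 TPM, Nrn1 at 114 and 103 TPM and the scaffold gene Homer1 at 91.5 and 67.9 TPM. Homer1 was the gene past 1.3-fold, with 7717 and 5160 counts and a ratio of -0.50, and the neurotrophin Bdnf followed with 1264 and 949 counts and a ratio of -0.34.

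**Figure D3:**
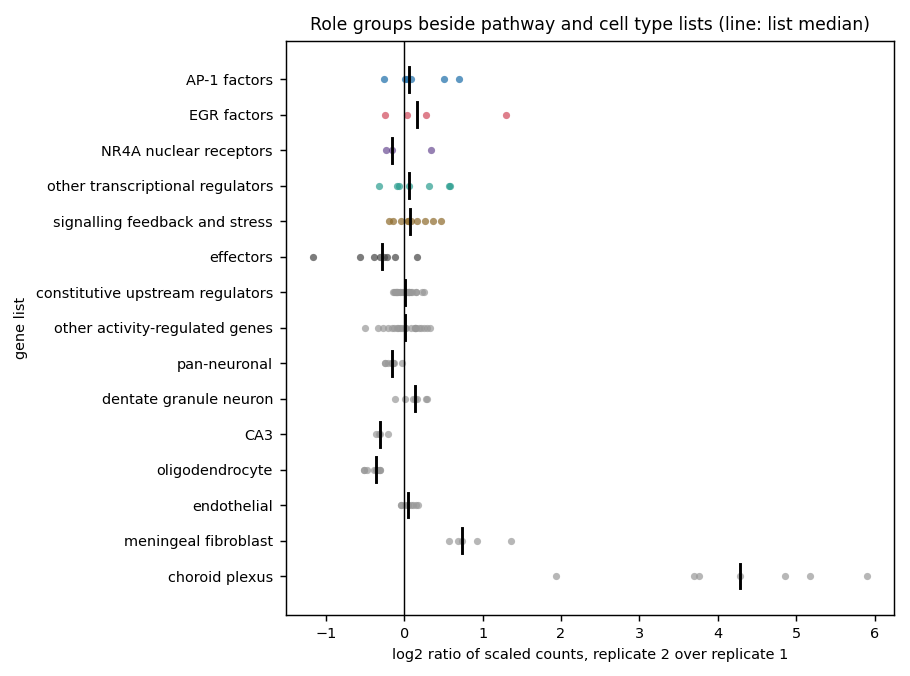
Log2 ratio of TMM-scaled counts, replicate 2 over replicate 1, for each gene that averaged at least 100 counts, by role group (coloured) and, in grey, by pathway and cell type list; the black line is the median of a list. The upstream regulators lie close to 0, the effectors have a median of -0.28, and the choroid plexus markers have a median of 4.29.

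As gene models, the 40 genes were short, which the choice by name did not use. Their median span from start to end was 6837 bases against 26127 for detected protein-coding genes, and 33 of 40 lay below that median. The median of the largest number of exons was 4.5 against 9, and Jun, Jund, Ier2 and Ier5 had a single exon. Their annotated exons covered a median of 3354.5 bases against 4639, and 30 of 40 lay below. The genes are spread over 15 chromosomes.

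Of the 40 genes, 10 had 1 annotated transcript and 30 had several. Of the 30, 27 had the same leading transcript in both libraries, the exceptions being Egr3, Inhba and Rgs2. In 23 of 30 the leading transcript was also the same in both quantifications. In Egr3, the retained-intron transcript Egr3-202 took 35.6% and 50.5% of the TPM of the gene and the coding Egr3-204 took 44.8% and 34.9%. In Rgs2, transcripts that keep a 110-base intron (chr1:144002842-144002951), mainly Rgs2-201, annotated as a target of nonsense-mediated decay, took 37.1% and 47.1%. Both shares were higher in replicate 2, also in the second quantification, with 21.3% and 32.6% for Egr3-202 and 46.1% and 49.8% for the Rgs2 intron. In Inhba, the short Inhba-202 took 40.4% and 54.0%, but 33.2% and 34.9% in the second quantification. In Arc, Arc-201 took 50.9% and 68.1%, and the nearly identical Arc-202 took the rest; the transcripts are 3055 and 3054 bases long, so few reads can tell them apart.

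For Nr4a1 and Vgf the assignment depended on the quantification far more than on the library. Nr4a1-201 took 83.1% and 86.7% of Nr4a1 in the first quantification, while the second gave 95.1% and 89.5% to Nr4a1-202. Vgf-201 took 76.0% and 69.3% in the first, while Vgf-204 took 66.7% and 69.4% in the second. Fos-201, the coding transcript of Fos, took 73.0% and 89.2% in the first and 56.6% and 56.4% in the second. The gap between quantifications in replicate 1 was about as wide as that between the libraries in the first. In replicate 2 that gap was wider, and in the second quantification the libraries were nearly level. Gene totals also depended on the quantification: the TPM of the second was 1.301 to 1.93 times that of the first over the 40 genes, with a median of 1.59, beside 1.71 for all detected protein-coding genes.

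**Figure D4:**
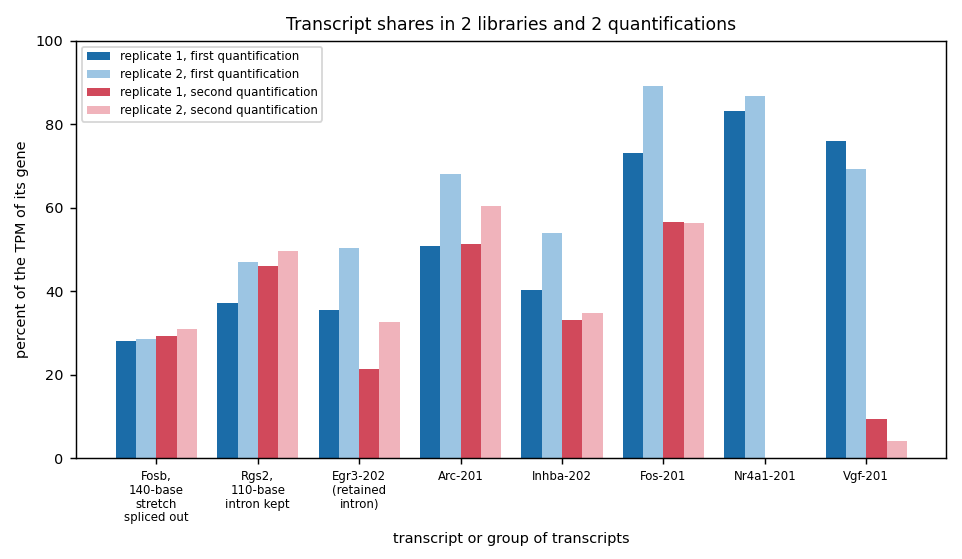
Share of the TPM of its gene, in percent, taken by a transcript or a group of transcripts in both libraries and both deposited quantifications. The Fosb share lies between 28.0% and 30.9% in all 4 bars, while Nr4a1-201 takes 83.1% and 86.7% in the first quantification and has bars too short to see in the second.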

How the data were processed

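Total RNA-seq of 2 hippocampus libraries of 1 group was read from 3 deposited tables per library. The authors deposited expected counts and TPM per gene and per transcript, with the percent each transcript takes of its gene, from alignments to transcripts, and a second set of estimated counts and TPM per transcript computed from the reads themselves. Both used mm10 and GENCODE annotation M21, per the file headers and notes deposited with each library. The column names are those RSEM and kallisto write, but the software and the use of strand in counting were not given in the sources used here. Numbered entries without a gene name held 4 and 4.88 counts, or 1.23e-05% and 1.62e-05%, and stayed out with the 96 spike-in entries.

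Expected counts were rounded and scaled by TMM (edgeR 4.0.16, R 4.3.3). Ratios are replicate 2 over replicate 1 with a prior count of 0.5, and their exact binomial 95% intervals cover counting error only. No count test was run, because there is 1 group of 2 libraries. Alternatives were DESeq2 1.42.0 size factors, total counts, spike-in counts, deposited TPM, the second quantification, other filters and folds. The ratio step was tested on simulated data. All 40 genes are named. In each pathway list, the 3 genes with the highest mean TPM and the 2 with the ratio farthest from 0 were named, and in a marker list the 2 with the highest level, apart from some that are not reported here. The symbols Mkl1, Mkl2, Cyr61 and Nov were matched to Mrtfa, Mrtfb, Ccn1 and Ccn3 through the RefSeq table. The genes, lists and thresholds were chosen with earlier results of these data known. Promoter windows came from the RefSeq table, which had none for Egr1, Egr3, Crem, Ier2, Dusp4, Sik1, Trib1, Arc, Nptx2 and Vgf.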

Additional observations from a re-analysis of the deposited data

How the results depend on the processing

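Spike-in scaling moves all ratios up by 0.26. Under it the median log2 ratio of the 40 genes was 0.30, with 13 genes past 1.3-fold higher, 1 past 1.3-fold lower and 0 past 2-fold lower. The role medians were then 0.33 for AP-1, 0.42 for EGR, 0.10 for NR4A, 0.32 for other regulators, 0.33 for signalling and stress genes and -0.024 for effectors, and 0.27 for both the upstream and the further activity-regulated genes. At a mean count of 500 or more, which keeps fewer genes, 1 gene was past 1.3-fold higher, 0 past 2-fold higher and 0 past 2-fold lower. At 1.5-fold in place of 1.3-fold, 2 genes were higher and 1 lower. From deposited TPM, 0 were past 2-fold lower, and of the 40 ratios those of Egr3 (-0.33) and Inhba (-0.93) moved beyond their counting intervals. The median level was 19.7 ± 1.31 TPM in the second quantification and 27.1 ± 0.143 TPM after rescaling to protein-coding genes. Leaving out a replicate gave 39 genes detected each time, median levels of 11.5 and 11.8 TPM, and 23 and 26 genes with the same leading transcript in both quantifications. The cause of these shifts was not tested. No paired analysis was possible because there is 1 group, and without either replicate no ratio can be formed. Depth limits the ratios of Atf3 and Ier3, and leaves wide intervals for Egr2, Ier2, Klf4, Gadd45g, Gadd45b and Npas4, among others.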

Other observations

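Fosl1, an AP-1 gene not among the 40, had 0 counts in both libraries, which allows up to 0.0925 and 0.0996 CPM (3 counts of each total, counting error only).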
